A study of Rattus norvegicus with 6 samples.

Results

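Lymphocyte transcripts in rat liver were described through 37 genes of T cells, B cells and cytotoxic or natural killer (NK) cells. Probes were taken where the RefSeq accession printed for them belonged to one of these genes, which gave 52 of the 61657 non-control probes and 34 of the 15284 genes that could be named on the array. Cd79a, Ms4a1 and Eomes had no matched probe and are named only. The livers came from male Sprague-Dawley rats of the outbred stock Crl:CD(SD), 9 weeks old, all of which had received the vehicle corn oil at 5 mL/kg/day and no drug. Of these, 3 rats were killed after CO2/O2 anaesthesia and 3 after isoflurane anaesthesia, with 1 rat per array, and no group without anaesthesia was measured. The labels give the corn oil period as 3 days in the design text and 9 weeks in the treatment protocol.

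T cells recognise antigen with a receptor that signals through the CD3 chains and the zeta chain CD247, with CD4 or CD8 as coreceptors and the kinases Lck and Zap70 downstream. B cells use surface immunoglobulin coupled to CD79A and CD79B. NK cells and cytotoxic T cells kill with perforin and granzymes, and the sinusoids of rat liver are a known site of resident NK cells, long called pit cells. In whole liver, fewer cells of a type and less RNA per cell cannot be told apart.

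The share of probes detected well above background was 56.9% to 62.3% over the CO2/O2 arrays and 60.6% on isoflurane replicate 1. It was lower on isoflurane replicates 2 and 3, at 53.4% and 55.7%, and the dimmest probe called detected there lay higher, at -4.18 and -4.42 against -5.37 to -4.67 on the other 4 arrays. All 10 of 10 hepatocyte genes were well above background on all 6 arrays, which checks the labelled tissue. Levels below are log2 intensities with the 75th percentile of each array set to 0, so they compare arrays for 1 probe and not different probes. Differences are isoflurane minus CO2/O2.

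Most lymphocyte genes measured lower after isoflurane, but no single gene passed the test. Testing required a probe detected well above background on each of the 3 arrays of at least 1 group, which held for 28 of the 34 genes with a probe and for 69.4% of all named genes. The difference was negative for 26 of 28 tested genes, against 52.9% of all 10609 tested genes. The median difference was -0.43, against -0.01 over all tested genes. In limma, 0 of 28 reached an adjusted p of 0.05. The same threshold was passed by 0.0% of all tested genes and by 0.00866% of the 34637 tested probes. The smallest adjusted p among the 28 was 0.55. At an unadjusted p under 0.05 there were 11 of 28, all with negative differences, against 7.58% of all genes, made up of 4.85% with a negative and 2.72% with a positive difference. Every isoflurane rat lay below every CO2/O2 rat for 11 of 28 members and above for 0 of 28. Over all genes these shares were 8.16% below and 6.01% above, or 14.2% in either direction. Of the 28, Cd27, Lck, Cd69 and Klrd1 were detected on all CO2/O2 arrays but not on all isoflurane arrays, so they were tested only through the group where they were higher. Among the 24 members detected on all 6 arrays, 22 had negative differences, against 51.8% of all such genes, and 8 did not overlap. The share of all such genes without overlap was not computed. These 28 genes vary together across the arrays, so the counts do not come from independent measurements.

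Single rats moved these counts. The count at an unadjusted p under 0.05 was 4 of 32 without CO2/O2 replicate 1, 3 of 28 without CO2/O2 replicate 2 and 7 of 28 without isoflurane replicate 3. In the same fits the share of all genes was 4.34%, 4.45% and 7.45%. The count without overlap was 20 of 28 without CO2/O2 replicate 3, where fewer arrays make overlap rarer. The share of all genes without overlap in that fit was not computed. With an array left out, negative differences ran from 23 of 28 members, without isoflurane replicate 1 or 2, to 28 of 32, without CO2/O2 replicate 1. The median over the 28 genes was -0.33 without isoflurane replicate 3 and -0.55 without isoflurane replicate 1. Over the 2680 tested genes whose mean level lay between the lower and upper quartile of the members' mean levels, the median difference was -0.01.

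**Figure D1:**
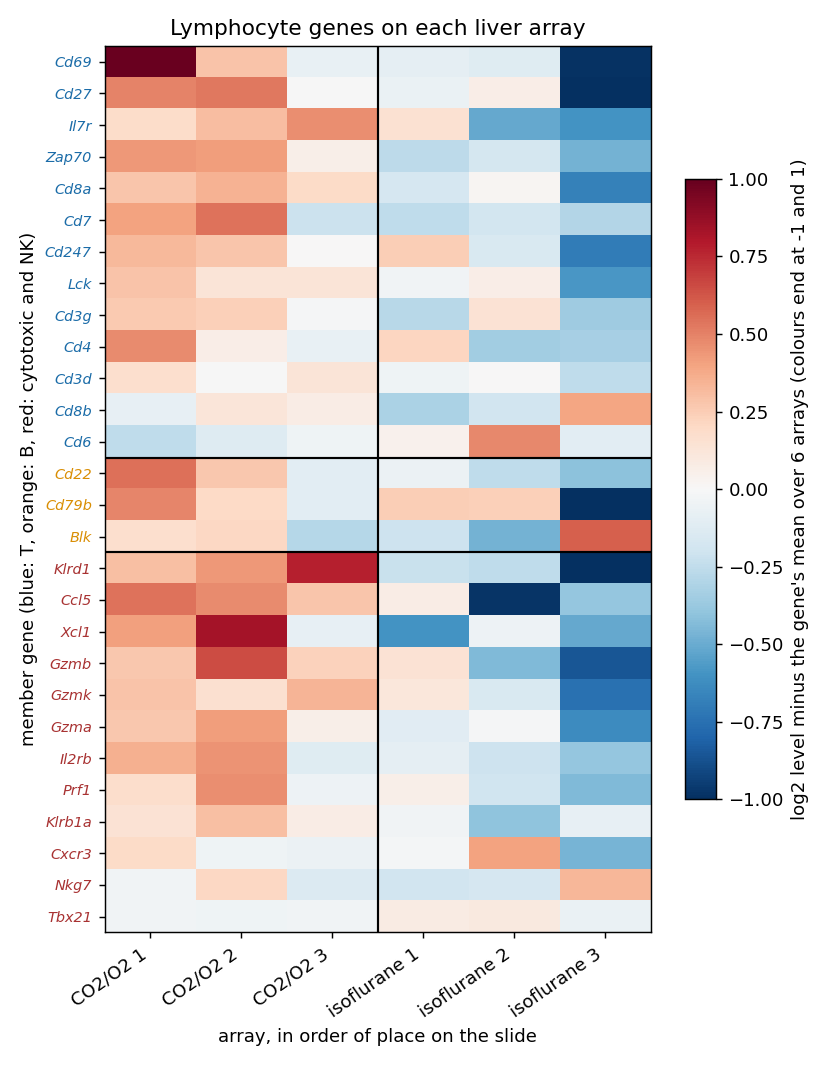
Each row is 1 of the 28 tested lymphocyte genes and each column is 1 liver array, in order of place on the slide; colour gives the log2 level minus that gene's mean over the 6 arrays. Of the 28 genes, 20 had their lowest value on isoflurane replicate 3 and 19 their highest on CO2/O2 replicate 1 or 2.

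The 3 classes differed in how many genes could be measured. Among T cell genes, 10 of 18 had a probe well above background on all 6 arrays, 7 on some arrays and Cd28 on none. All 3 B cell genes with a probe reached that mark, as did 11 of 13 cytotoxic and NK genes with a probe, against 65.7% of all named genes. The median difference was -0.40 for 13 tested T cell genes, -0.39 for 3 B cell genes and -0.48 for 12 cytotoxic and NK genes. The class medians thus lay within 0.09 of each other. Between rats of a group, the class means had an SD of 0.19, 0.23 and 0.16. All classes were read on the same rats, so these SDs do not measure the gap between classes, which was not tested. Negative differences were found for 12 of 13, 3 of 3 and 11 of 12 genes. Groups did not overlap for 5 of 13 T cell genes, 0 of 3 B cell genes and 6 of 12 cytotoxic and NK genes. All of these were lower after isoflurane, against 8.16% of all tested genes, and with 3 B cell genes a count of 0 says little.

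**Figure D2:**
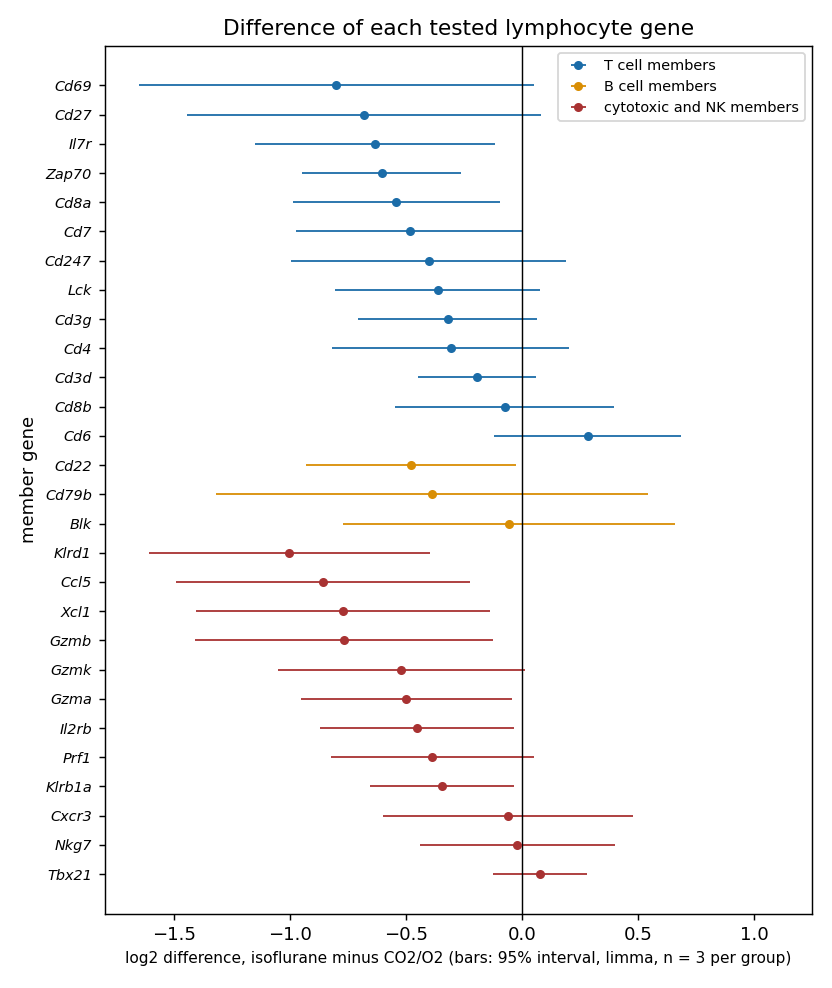
Points are log2 differences of the 28 tested lymphocyte genes, isoflurane minus CO2/O2 (n = 3 rats per group), and bars are 95% confidence intervals from limma. The intervals of 11 genes leave out 0 before any adjustment, and those of 19 genes lie within 2-fold in either direction.

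The members were also compared in sequence, since genes of 1 cell type often share promoter motifs. RefSeq windows of 300 bases (250 before and 50 after the start, build GRCr8) were found for 24 of the 37 genes. The windows below are those of the gene with the smallest unadjusted p in each class among genes with a window, Zap70, Cd22 and Xcl1, and of Gzmb, which held the most kinds of motif. Capitals mark matches to TGTGGT (the core bound by RUNX factors), AGGAAG (an ETS core), GGTGTGA (a T-box element) or TGANTCA (an AP-1 site) on either strand.
Zap70 (chr9:46485355-46485654, plus strand): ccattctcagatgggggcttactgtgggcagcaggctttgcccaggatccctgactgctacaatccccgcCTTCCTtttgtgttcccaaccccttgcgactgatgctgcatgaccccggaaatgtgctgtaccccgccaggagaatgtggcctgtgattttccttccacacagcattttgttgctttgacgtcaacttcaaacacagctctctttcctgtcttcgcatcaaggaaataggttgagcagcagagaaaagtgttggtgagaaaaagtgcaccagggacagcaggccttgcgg
Cd22 (chr1:95259681-95259980, minus strand): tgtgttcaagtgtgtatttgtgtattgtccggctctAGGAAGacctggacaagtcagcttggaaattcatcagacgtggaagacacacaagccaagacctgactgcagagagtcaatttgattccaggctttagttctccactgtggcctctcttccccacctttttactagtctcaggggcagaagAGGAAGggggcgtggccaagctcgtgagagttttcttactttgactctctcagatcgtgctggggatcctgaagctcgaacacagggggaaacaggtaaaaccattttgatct
Xcl1 (chr13:79785391-79785690, minus strand): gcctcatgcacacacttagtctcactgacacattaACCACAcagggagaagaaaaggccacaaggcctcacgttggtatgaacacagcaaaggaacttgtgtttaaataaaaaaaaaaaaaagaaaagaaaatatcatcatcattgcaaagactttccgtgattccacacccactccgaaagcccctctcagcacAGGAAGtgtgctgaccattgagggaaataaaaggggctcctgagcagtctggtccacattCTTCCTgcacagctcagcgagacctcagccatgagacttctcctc
Gzmb (chr15:34462420-34462719, minus strand): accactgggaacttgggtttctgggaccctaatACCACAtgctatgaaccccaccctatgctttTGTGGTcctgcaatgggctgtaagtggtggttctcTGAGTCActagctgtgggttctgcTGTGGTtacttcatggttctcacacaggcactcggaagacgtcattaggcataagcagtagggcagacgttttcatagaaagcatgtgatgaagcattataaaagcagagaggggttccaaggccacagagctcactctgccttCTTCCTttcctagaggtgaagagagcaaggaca
The RUNX core was present in 11 of 24 member windows, or 45.8%, against 16.9% of all 27457 windows. Of those 11, 7 were among the 10 cytotoxic and NK genes with a window and 0 among the 2 B cell genes. The ETS core was present in 16 of 24, or 66.7%, against 34.3% of all windows. The T-box element was present in 2 of 24 (Cd28 and Gzmk) against 3.81%, and the AP-1 site in 1 of 24 (Gzmb) against 7.33%. No overlap between different motifs occurred in the 4 windows shown. A match describes letters only.

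Zap70, the kinase recruited to the phosphorylated T cell receptor, had the smallest p of the T cell genes. Its levels were -0.76, -0.77 and -1.14 after CO2/O2 and -1.45, -1.37 and -1.67 after isoflurane. All 3 isoflurane rats were below all 3 CO2/O2 rats. The difference was -0.61 ± 0.14 (SE, n = 3 per group; limma adjusted p = 0.55), or 1.52-fold. Cd8a, a chain of the coreceptor of cytotoxic T cells that rat NK cells can also carry, had levels of -2.25, -2.17 and -2.33 after CO2/O2 and -2.69, -2.50 and -3.19 after isoflurane. The groups again did not overlap, with isoflurane replicate 3 lowest. The difference was -0.54 ± 0.18 (limma adjusted p = 0.62), and -0.34 without isoflurane replicate 3. Il7r, the interleukin-7 receptor that keeps naive and memory T cells alive, had levels of -2.60, -2.47 and -2.31 against -2.62, -3.29 and -3.37. Isoflurane replicate 1 lay just below the CO2/O2 rats and the others well below. The difference was -0.64 ± 0.21, and the other 3 probes of Il7r gave -0.50, -0.33 and -0.28, each with groups that overlapped.

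Cd69, an early activation and tissue retention marker, was near background, with 3 of 3 CO2/O2 and 1 of 3 isoflurane arrays well above it. Its levels did not overlap, running from -3.66 to -4.72 after CO2/O2 and from -4.74 to -5.64 after isoflurane, where 2 of the 3 values were not well above background. The difference was -0.80 ± 0.35, and -0.15 with normexp background correction. It was -0.51 without CO2/O2 replicate 1 and also -0.51 without isoflurane replicate 3. Cd7, a glycoprotein of T and NK cells, had 0.82, 0.96 and 0.20 against 0.16, 0.23 and 0.12. CO2/O2 replicate 3 sat among the isoflurane rats, and the differences at both probes were -0.48 and -0.38. Other T cell genes had smaller or less certain differences. The CD3 chains Cd3d and Cd3g had -0.20 and -0.32, the zeta chain Cd247 had -0.40, and Cd4 had -0.31 and -0.29 at its probes. Lck, the kinase that starts receptor signalling, had -0.36 with groups that did not overlap, and the costimulatory receptor Cd27 had -0.68 with groups that overlapped. Both were well above background on 2 of 3 isoflurane arrays. Ccr7, Cd2, Cd28, Cd3e and Cd5 were too dim to be tested.

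Probes of 1 gene did not always give the same sign. Of 10 members with more than 1 tested probe, 9 had negative differences at every tested probe and 1 had opposite signs. That gene was Cd6, an adhesion receptor of T cells. Its probe A_64_P144168 had levels of -0.81, -0.68 and -0.60 after CO2/O2 and -0.51, -0.07 and -0.67 after isoflurane, a difference of 0.28 ± 0.17, or 0.11 without isoflurane replicate 2. Its probe A_43_P22811 had -1.09, -1.31 and -1.37 against -1.53, -1.54 and -2.12, with no overlap and a difference of -0.47 ± 0.18. The other probes of Cd6, A_44_P116555 and A_64_P121267, were not well above background on any array. Cd8b, the partner chain of Cd8a, had -0.08 at A_42_P480723, where isoflurane replicate 3 was the highest array at -2.64, and -0.42 at A_64_P030689, where the groups did not overlap but only 1 of 3 isoflurane values was well above background.

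Tbx21 encodes T-bet, a transcription factor of NK and type 1 T cells, and only 1 of its probes was detected, a split also seen for Cd247. Probe A_64_P007773 read 6.04, 6.02 and 6.03 after CO2/O2 and 6.15, 6.17 and 6.001 after isoflurane, a range of 0.17. Probe A_44_P206563 was not well above background on any of the 6 arrays. The difference at the bright probe was 0.077 ± 0.084, between 0.046 and 0.13 with an array left out. Whether that probe reads Tbx21 RNA in liver was not tested. Without Tbx21, the median over cytotoxic and NK genes was -0.50 and 26 of 27 tested genes had negative differences.

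**Figure D3:**
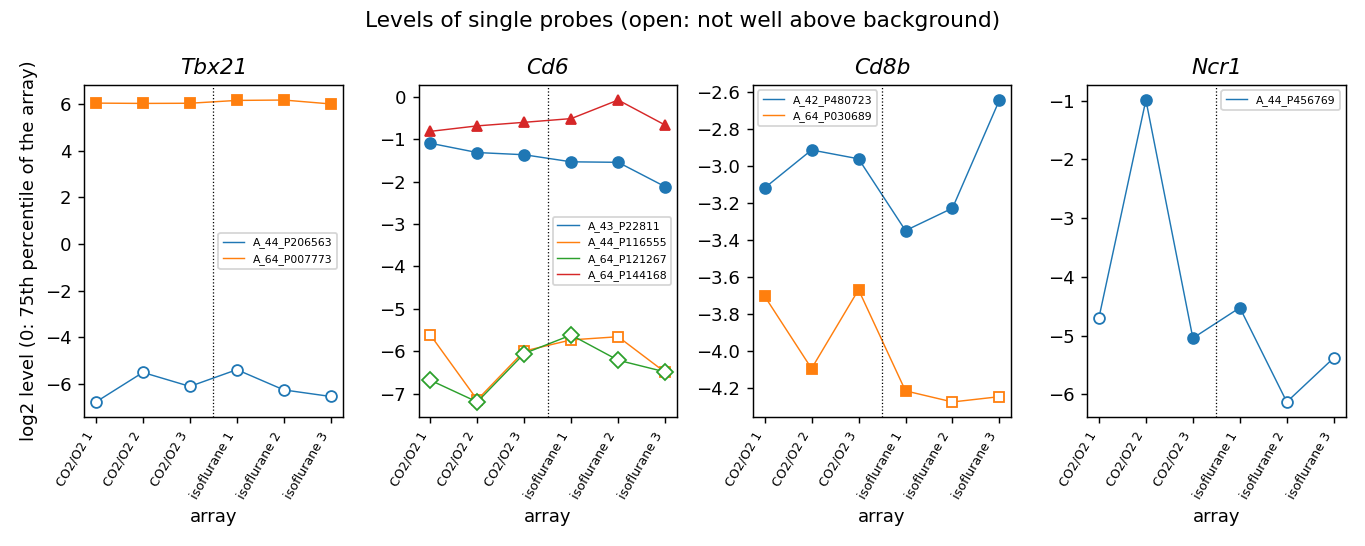
Log2 levels of every probe of Tbx21, Cd6, Cd8b and Ncr1 on the 6 arrays, each panel with its own axis; filled points were well above background and open points were not. The bright Tbx21 probe stays between 6.001 and 6.17 while the other is never detected, and Ncr1 reads -0.99 on CO2/O2 replicate 2 alone.

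Killing molecules are granule proteins that enter or perforate the target cell. Gzmb, the protease granzyme B, had levels of -1.88, -1.50 and -1.92 after CO2/O2 and -2.004, -2.59 and -3.01 after isoflurane. The groups did not overlap, although isoflurane replicate 1 was only just below. The difference was -0.77 ± 0.26 (n = 3 per group; limma adjusted p = 0.62), and the other probes gave -0.99 and -0.91, both without overlap. Granzymes are a family of similar sequence, so probes may share signal. Gzma and Gzmk, further granzymes, had -0.50 ± 0.19 and -0.52 ± 0.22, each without overlap, and the pore former Prf1 had -0.39 ± 0.18 with overlap. Nkg7, a granule membrane protein, had 0.41, 0.65 and 0.31 against 0.26, 0.28 and 0.78, a difference of -0.02 ± 0.17. Its highest value was on isoflurane replicate 3, the array on which most other members were lowest.

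Ccl5, a chemokine made by T and NK cells and by other leukocytes, had 3.66, 3.60 and 3.40 after CO2/O2 and 3.20, 2.14 and 2.74 after isoflurane. No values overlapped, and here isoflurane replicate 2 was the lowest. The difference was -0.86 ± 0.26 (limma adjusted p = 0.59), or 1.81-fold, with -0.75 at the other probe. Xcl1, a chemokine that draws cross-presenting dendritic cells, had -0.49, -0.07 and -0.99 against -1.50, -0.95 and -1.41. CO2/O2 replicate 3 and isoflurane replicate 2 met near the middle, and the 3 probes gave -0.77, -0.82 and -0.79. Cxcr3, the receptor for interferon-induced chemokines, had a difference of -0.06 ± 0.22.

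Klrd1, which encodes the NK receptor chain CD94, was well above background on 3 of 3 CO2/O2 and 2 of 3 isoflurane arrays, and so was tested only through the group where it was higher. Its levels were -3.01, -2.88 and -2.54 after CO2/O2 and -3.54, -3.57 and -4.35 after isoflurane, with no overlap. The difference was -1.005 ± 0.25 (limma adjusted p = 0.56), or 2.01-fold, with isoflurane replicate 3 not well above background. It was -0.51 with normexp background correction. Its other probe gave -0.71 over 5 arrays, since the spot of CO2/O2 replicate 1 was marked as an outlier and left out. Klrb1a, of the NKR-P1 family of NK receptors with close paralogs, had -2.97, -2.81 and -3.03 against -3.15, -3.51 and -3.19. All isoflurane rats were lower, by little, with a difference of -0.35 ± 0.13 (limma adjusted p = 0.64), and -0.13 with normexp. Il2rb, the receptor chain for interleukins 2 and 15, had -0.46 ± 0.17 with overlap. Ncr1, the NK receptor NKp46, was not tested, being well above background on 3 of 6 arrays. It read -0.99 on CO2/O2 replicate 2 and between -6.13 and -4.52 on the others, 11.6-fold above the next array. That spot was not marked as an outlier, and no other probe of Ncr1 was matched.

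The 3 tested B cell genes had negative differences, but all had groups that overlapped and, as in the other classes, none passed the adjusted threshold. Cd22, an inhibitory coreceptor, had -0.69, -0.97 and -1.34 after CO2/O2 and -1.30, -1.50 and -1.65 after isoflurane. CO2/O2 replicate 3 fell within the isoflurane range, and the difference was -0.48 ± 0.19 (limma adjusted p = 0.65), with -0.47 at its other probe. Cd79b, a signalling chain of the B cell receptor, had -1.71, -2.01 and -2.31 against -1.96, -1.97 and -3.28. Its difference of -0.39 ± 0.38 rested on isoflurane replicate 3 and was 0.049 without that array. Blk, a kinase of the Src family, had -3.23, -3.19 and -3.69 against -3.61, -3.87 and -2.80, a difference of -0.06 ± 0.30 with isoflurane replicate 3 the highest array. The B cell median was -0.24 without CO2/O2 replicate 1.

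Array order ran alongside the groups. The 6 arrays lay on 1 slide, with the CO2/O2 arrays and isoflurane replicate 1 in row 1 and the other isoflurane arrays in row 2, so the isoflurane arrays held the last places. Mean centred levels of the T cell genes were 0.30, 0.24 and 0.048 after CO2/O2, then -0.064, -0.068 and -0.46 after isoflurane. Those of cytotoxic and NK genes were 0.24, 0.36 and 0.11 and then -0.066, -0.20 and -0.44, and those of B cell genes 0.41, 0.22 and -0.17 and then -0.0062, -0.16 and -0.30. The T cell means were thus lower at each place than at the one before, while the other classes each had a step up. The lowest array was isoflurane replicate 3 for 20 of 28 genes, against 22.8% of all genes. The highest was CO2/O2 replicate 1 or 2 for 19 of 28, against 29.2% of all genes. Strictly falling levels over the 6 places were found for 1 of 28 members, Cd69, against 0.594% of all genes.

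**Figure D4:**
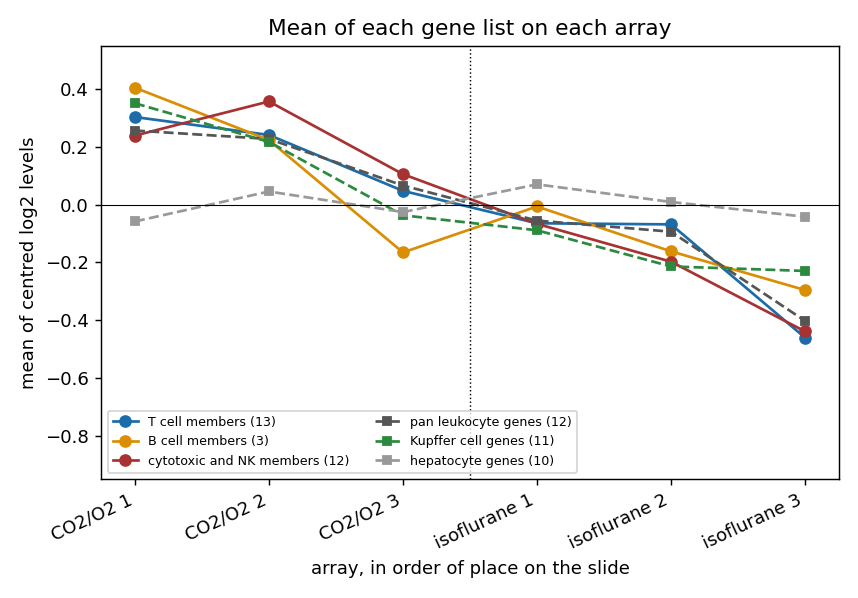
Mean log2 level of each gene list after centring each gene on its 6-array mean, for the arrays in order of place; the number of genes is in brackets and the dotted line parts the groups. T cell genes run from 0.30 to -0.46 and Kupffer cell genes from 0.35 to -0.23, while hepatocyte genes stay between -0.06 and 0.07.

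With a slope over the 6 places fitted beside the group, the median difference over the members was 0.026. Negative differences were found for 12 of 28, against 52.9% of all genes in that fit. The median SE grew from 0.20 to 0.35 in that fit. Within slide row 1 alone, where the isoflurane arm is 1 rat, the median was -0.22. There 26 of 33 tested members were negative, against 47.1% of all genes. Detection on that 1 isoflurane array was enough to be tested, so members too dim for the main test entered. With the slide row as a block it was -0.24, with 23 of 28 negative; row 2 held isoflurane rats only and gives no value. Group and place cannot be told apart in most of this range.

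Arrays of the isoflurane group differed more among themselves in these genes than those of the CO2/O2 group. The median SD was 0.34 among isoflurane and 0.18 among CO2/O2 rats for the members, and 0.15 and 0.12 over all tested genes. The SD was larger among isoflurane rats for 21 of 28 members, against 60.9% of all tested genes. The isoflurane arrays lay in slide rows 1 and 2 and the CO2/O2 arrays in row 1 only, so spread between rats and between places cannot be told apart. Cd27, Lck, Cd69 and Klrd1 were also not well above background on isoflurane replicate 3.

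Further genes of the same pathways and of other blood cells were read from lists drawn up by cell type and pathway. In these lists 0 genes passed an adjusted p of 0.05 in limma. Among T cell receptor signalling genes, 7 of 8 tested had negative differences with a median of -0.19. The kinase Txk had -0.67 ± 0.17 without overlap, and the adaptor Lat had -0.01. Among B and plasma cell genes, 10 of 12 were negative with a median of -0.28. The B cell scaffold Bank1 had -1.02 ± 0.26 without overlap but was well above background on 1 of 3 isoflurane arrays. Fcrla had -1.06 ± 0.48 with overlap, and Pax5, the B lineage factor, had 0.30 ± 0.15. Among NK receptor and killing genes, 11 of 13 were negative with a median of -0.41. Gzmc had -1.17 ± 0.29 and the homeodomain protein Hopx -0.56 ± 0.14, while the signalling adaptor Tyrobp, also of myeloid cells, had -0.38 ± 0.11. Partner ligands and receptors of the members had 8 of 8 negative differences and a median of -0.41. Cd86, the ligand of Cd28, had -0.68 ± 0.17 with 1 of 3 isoflurane values well above background, and the Cxcr3 ligand Cxcl11 had -0.18 ± 0.10.

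Markers of other cells were read beside the lymphocyte genes, and 0 of them passed the test. Pan leukocyte genes had negative differences in 12 of 12, with a median of -0.41. Isoflurane was lower without overlap for 8 of 12, against 8.16% of all tested genes (Rac2 -0.41 ± 0.11, Cd53 -0.48 ± 0.13, Laptm5 -0.31 ± 0.11). Their summed level, in multiples of the 75th percentile, was 47.5 to 55.9 on CO2/O2 arrays and 35.1 to 44.3 on isoflurane arrays. Kupffer cell genes, of the resident liver macrophages, were negative in 11 of 11 with a median of -0.33 and summed levels of 211.5 to 259.9 and 171.0 to 202.4. Erythroid genes were negative in 6 of 7 with a median of -0.31 and sums of 395.0 to 561.9 and 323.0 to 430.2. Neutrophil genes were negative in 3 of 3 tested, while Csf3r, Cxcr2, Elane, Ltf, Mmp8 and Ngp were too dim to be tested. Dendritic cell genes were negative in 2 of 3. Hepatocyte genes were negative in 2 of 10, with a median of 0.03 and sums of 4290.2 to 4549.7 and 4251.7 to 4539.5. The part of these cell types, and of blood held in the organ, in the lymphocyte differences was not tested.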

How the data were processed

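Liver RNA of 6 rats was measured on 1-colour (Cy3) arrays, 1 rat each. Per the file headers, the deposited intensity values were read and background-corrected by Agilent Feature Extraction, version 10.7 per the submitters' processing notes, and arrays were not scaled to each other. A second deposited table gives a ratio, that is the processed intensity divided by 1 number per array near the 75th percentile. Here log2 intensity was set to 0 at the 75th percentile of each array's 61657 non-control probes. The 177 spots marked as outliers were left out, and no spot was saturated. Probes well above background on all 3 arrays of a group were tested (lmFit and eBayes, limma 3.58.1, R 4.3.3), with Benjamini-Hochberg adjustment over all 34637. A gene took its tested probe of highest mean. Accessions without version were matched to RefSeq genes of GRCr8; 27460 probes matched 1 gene, and array positions are not given because the headers name another build. The members and lists were chosen with earlier results of these data known, so no list test was made. Full values were given, in each class, for the brightest gene and the 5 with the smallest unadjusted p, for genes whose probes had opposite signs and for any called under an alternative, of which there were none; of other lists at most 3 genes were named, and some are not reported here. Cd8b, Ncr1, Nkg7 and the remaining members were described beyond that rule, after their values were seen. The fit was also run on simulated data with independent noise for each probe, which lack the shared variation of these genes. Its outcome is not reported here. Alternatives were background correction (normexp, offset 50), scaling, filters, the value table, blocks, array places and leaving out each array. Figures used Python 3.11.15 with matplotlib 3.10.9.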

Additional observations from a re-analysis of the deposited data

How the results depend on the processing

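The number of members past an adjusted p of 0.05 was 0 in limma under every setting run, and medians stayed negative in all except the slope over array places. That slope gave medians of 0.010 for T cell, 0.28 for B cell, 0.026 for cytotoxic and NK and 0.026 for all members, 12 negative differences, 0 members at an unadjusted p under 0.05 and 0 probes past the threshold, with positive differences for Cd22 (0.28), Cd69 (0.67), Cd7 (0.010), Cd79b (1.05) and Gzmb (0.010). Slide row 1 alone gave -0.16, -0.24 and -0.22 for T cell, cytotoxic and NK and all members, 3 members at an unadjusted p under 0.05, 22 of 33 without overlap and 0.052 for Cd79b; the lone isoflurane rat there is taken to have the spread of the CO2/O2 rats. The slide row as a block gave -0.22 for cytotoxic and NK and -0.24 for all members, and the same 0.052 for Cd79b. Its contrast is also isoflurane replicate 1 against the CO2/O2 rats, so it is not a separate check. Correlations of deviations between rats of equal replicate number were 0.11, 0.02 and 0.06, and those of unequal number ran from -0.09 to 0.04. These small values do not settle whether the number pairs the rats. The replicate block gave 0 probes past the threshold, against 3, and 14 members at an unadjusted p under 0.05, against 11. Each isoflurane rat correlated best with the CO2/O2 rat of its own number, while CO2/O2 replicate 2 correlated best with isoflurane replicate 3 (0.04). Probes past the threshold numbered 5 with eBayes trend and robust, 5 with normexp and 1 without a filter on dim probes. The unadjusted share of all genes was 4.26% with the slope and 8.36% with the replicate block, against 7.58%. Normexp gave 7 of 28 members without overlap, against 11 of 28, and the share of all genes without overlap there was not computed. It also gave a T cell median of -0.25, with -0.51 for Klrd1, -0.15 for Cd69, -0.13 for Klrb1a and 0.055 for Blk. No filter gave 7 of 34 at an unadjusted p under 0.05, where the share of all genes was 6.5%. The mean of its probes gave -0.10 for Cd6. Median centring gave 68.8% of all genes negative, against 52.9%, with 26 of 28 members negative in both.

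With each array left out in turn, probes past the threshold ran from 1 to 20, members without overlap from 12 to 20, where fewer arrays make overlap rarer, and members at an unadjusted p under 0.05 from 3 to 14. Negative differences ran from 23 of 28 to 28 of 32 (without CO2/O2 replicate 1). Medians ran from -0.50 to -0.29 (T cell), -0.57 to -0.24 (B cell), -0.55 to -0.34 (cytotoxic and NK) and -0.55 to -0.33 (all). The difference of Blk ran from -0.37 to 0.16 and of Cd79b from -0.61 to 0.049. Other differences that moved by over 1.5 times from their value with all arrays were those of Cd8a (-0.69 to -0.34), Cd69 (-1.04 to -0.51), Cd6 (0.11 to 0.41) and Tbx21 (0.046 to 0.13). The remaining named genes moved less from that value but also had wide ranges, such as Ccl5 (-1.11 to -0.58) and Gzmb (-1.03 to -0.53). The cause of these shifts was not tested. The number of arrays limits the precision, with 95% intervals that reached a median of 0.48 to either side, and 6 matched members were too dim to be tested.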
